A study of Mus musculus with 9 samples.

Results

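*Irak3*, *Il1rap*, *Nav3*, *Mdk* and *Hdac7* are 5 genes that the study placed among the regulators of the production of 2 cytokines, interleukin-2 (IL-2) for one and interleukin-12 (IL-12) for the other, and they were followed here in every mouse of the deposited tables. The members were chosen by gene symbol with their change between BA and AV mice in view, so that change is described below and not tested. All 5 were listed in both tables, among 9872 genes in one and 11820 in the other, 12275 in all. The data were normalized RNA-seq signals of amygdala cells sorted as YFP-positive pyramidal neurons from 9 mice of the line B6.Cg-Tg(Thy1-YFP)HJrs/J, in which a Thy1 promoter drives the fluorescent protein in a subset of projection neurons. All mice carried this transgene, and none received a drug treatment according to the sources used here. Balancing (BA, 3 mice), avoiding (AV, 3 mice) and approaching (AP, 3 mice) animals were picked from a larger cohort by their choices in a Y-maze that set a palatable food in a lit white arm against standard food in a dark arm, and were killed 1 month later. Each library came from 1 mouse, so that the spread between libraries includes the spread between animals, and the age of the mice is not given in the sources used here. One table held the 3 BA mice and AV mice 1 and 3, since AV mouse 2 was left out by the authors as an outlier. The other held the same 3 BA mice and the 3 AP mice. The 2 tables were normalized separately and share their BA mice, so each comparison was made within its own table.

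The 5 genes meet in cytokine biology but are known for different work elsewhere. IL-1 family cytokines signal through a receptor and its accessory protein, encoded by *Il1rap*, which together recruit the adaptor MyD88 and the IRAK kinases into the Myddosome, upstream of TRAF6 and NF-kB. *Irak3* encodes IRAK-M, a pseudokinase that restrains this complex and is best known from monocytes and macrophages. Outside cytokine signalling, the accessory protein also acts as a synaptic adhesion molecule that binds the receptor phosphatase PTPδ, encoded by *Ptprd*. *Nav3* encodes a navigator, a large protein that binds growing microtubule ends, *Mdk* encodes midkine, a heparin-binding growth factor, and *Hdac7* encodes a class IIa histone deacetylase that represses targets of the MEF2 transcription factors.

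The 5 genes lie on 4 chromosomes of the GRCm38 build. *Irak3* (ENSMUSG00000020227) spans chr10:120141648-120202130 on the minus strand and *Nav3* (ENSMUSG00000020181) chr10:109681259-110456204 on the same strand. *Il1rap* (ENSMUSG00000022514) spans chr16:26581704-26730117 on the plus strand, *Mdk* (ENSMUSG00000027239) chr2:91929805-91932297 on the minus strand and *Hdac7* (ENSMUSG00000022475) chr15:97792664-97844502 on the minus strand. All are protein coding, and their merged exons cover from 1324 bases for *Mdk* to 15207 bases for *Nav3*. Exons of *Irak3* share 192 bases with *Tmbim4* on the opposite strand and 28 with the antisense gene *Gm47009*, those of *Il1rap* share 552 bases with the antisense gene *Gm20319*, and those of *Hdac7* share 29 bases with *Slc48a1* on the opposite strand. The libraries were stranded, but whether the counting used the strand is not given in the sources used here. *Tmbim4* did not move with *Irak3*: its values of 118, 157 and 106 in BA mice overlapped those of 191 and 132 in AV mice. *Slc48a1*, a haem transporter gene, was low together with *Hdac7*, at 1076, 1072 and 839.8 in BA mice and at 446 and 573 in AV mice (log2 fold change -0.97, limma adjusted p 0.0261, not called without BA mouse 1 or 2 or AV mouse 1, at -0.91, -0.91 and -0.79). Its part in the values of *Hdac7* was not tested.

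Among the 5 genes, *Irak3* and *Il1rap* had the lowest log2 fold changes in AV mice, and the bases before their start sites are shown for that reason. The sequences are from RefSeq on GRCm38.p6, which gave start sites for *Irak3*, *Il1rap* and *Hdac7*. The *Irak3* stretch, chr10:120201660-120201847 on the minus strand, ends just before the first base of transcript Irak3-201, and the *Il1rap* stretch, chr16:26581455-26581703 on the plus strand, ends just before that of Il1rap-202. Capitals mark matches to 4 motifs searched on both strands, the GC box GGGCGG, the E-box CACGTG, the TATA box TATAAA and the CCAAT box CCAAT, none of which overlapped here.
Irak3: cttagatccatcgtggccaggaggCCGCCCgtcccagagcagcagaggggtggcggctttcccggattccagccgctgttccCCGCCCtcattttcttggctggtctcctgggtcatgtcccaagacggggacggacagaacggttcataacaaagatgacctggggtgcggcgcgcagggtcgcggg
Il1rap: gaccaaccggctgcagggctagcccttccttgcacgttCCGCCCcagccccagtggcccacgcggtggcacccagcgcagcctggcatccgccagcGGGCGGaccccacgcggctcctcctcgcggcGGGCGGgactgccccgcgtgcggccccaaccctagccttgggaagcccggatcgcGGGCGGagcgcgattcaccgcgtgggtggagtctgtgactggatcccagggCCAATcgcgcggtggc
The *Irak3* stretch of 188 bases held 2 GC boxes, 164 and 106 bases before the start, and 15 CpG dinucleotides at a GC content of 64.4%. The *Il1rap* stretch of 249 bases held 4 GC boxes, 211, 153, 122 and 67 bases before the start, 1 CCAAT box at 16 bases and 29 CpG dinucleotides at a GC content of 74.3%. No E-box and no TATA box was matched in either stretch. The *Irak3* stretch lies inside the gene as annotated, and its distances are from the start of the GENCODE transcript. The RefSeq start next to it is chr10:120201597, and the 2 GC boxes lie 226 and 168 bases before that base. RefSeq also gives a start at the 5′ end of the gene, chr10:120202130. The 250 bases before that start held no GC box, 1 CCAAT box at 12 bases and 6 CpG dinucleotides at a GC content of 47.6%. Over 32851 RefSeq stretches of 250 bases, 32.7% held a GC box, 6.02% an E-box, 12.4% a TATA box and 33.8% a CCAAT box, so that a GC box or a CCAAT box is common in such windows.

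The listed marker genes did not show the libraries to be pyramidal neurons, although a gene that is not listed is not shown to lack signal. Of 12 microglia markers, 3 were listed beside the AV mice and 11 beside the AP mice, with the same BA mice in both tables. Of 11 pyramidal neuron markers only *Nrgn* was listed, and *Slc17a7*, *Slc17a6*, *Neurod6*, *Neurod2*, *Tbr1*, *Rbfox3*, *Snap25*, *Syt1* and *Thy1* were among those in neither table. *Nrgn*, which encodes the calmodulin-binding protein neurogranin, rose from 11.7, 15.8 and 16.3 in BA mice to 129 and 131 in AV mice (log2 fold change 3.08, limma adjusted p 0.00256). In the other table it was at 14.8, 20.4 and 16.7 in BA mice and at 5.41, 113 and 397 in AP mice, where it was not called. *Nrgn* was thus higher in AV mice, as *Nav3* and *Mdk* were, and its part in their values was not tested. The cells are therefore called by their sort below. In the BA vs AV table the 6 listed oligodendrocyte markers summed to 179351 to 222221 in BA mice and to 51194 and 78859 in AV mice, and 6 of 7 astrocyte markers to 9372 to 14898 and to 29456 and 56875. Only 3 of 12 microglia markers were listed there, *Cx3cr1*, *Tmem119* and *C1qa*, with sums of 237 to 354 in BA mice and 722 and 939 in AV mice. In the BA vs AP table the oligodendrocyte sums overlapped (210544 to 270638 and 214175 to 265075), whereas 11 of 12 microglia markers summed to 1536 to 3102 in BA mice and to 5515, 4191 and 7325 in AP mice. Of the other marker lists, the 2 of 6 endothelial markers listed beside the AV mice were apart, with sums of 183 to 306 in BA and of 165 and 148 in AV mice, and overlapped between BA and AP mice. The sums of oligodendrocyte precursor, border macrophage and pericyte markers overlapped wherever they were listed, and of 6 inhibitory neuron markers only *Gad2* was listed, in the BA vs AP table. The precursor sum hides changes in both directions, as all 3 markers listed beside the AV mice were called. *Pdgfra* was higher in AV mice (log2 fold change 1.81), and *Olig1* (-0.98) and *Olig2* (-1.17) were lower. In bulk samples of this kind, fewer cells of a type and less RNA per cell cannot be told apart. Column sums ranged from 3267970 to 3974270 where AV mice were listed and from 4589300 to 5072770 where AP mice were. Steps of 1 read in the latter correspond to 3817120 to 6720490 reads per mouse and put the level of 3 reads, below which a gene cannot be told from one without reads, at 4.13 to 5.68. No step was derived for the values beside the AV mice, and their depth is unknown. Such levels cover counting error only.

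*Il1rap* was the highest of the 5 genes in BA mice and *Nav3* the lowest, on a scale of signal per kilobase of merged exons. In BA mice of the BA vs AV table the levels per kilobase were 141 to 188 for *Il1rap*, 28.8 to 44.3 for *Hdac7*, 11.7 to 15.9 for *Mdk*, 8.90 to 13.5 for *Irak3* and 6.83 to 10.02 for *Nav3*. The ranges of *Mdk* and *Irak3* overlapped, as did those of *Irak3* and *Nav3*, while those of *Il1rap*, *Hdac7* and *Mdk* were apart. The order in the AV mice was different, with *Nav3* at 46.4 and 78.2, *Mdk* at 23.4 and 67.7, *Il1rap* at 20.9 and 52.7, *Hdac7* at 14.7 and 26.8 and *Irak3* at 1.001 and 2.48. Among these, only the values of *Irak3* lay clear of those of the next gene in the order. In AP mice the levels per kilobase were 151 to 177 for *Il1rap*, 28.1 to 53.0 for *Mdk*, 21.9 to 44.7 for *Hdac7*, 19.4 to 31.3 for *Nav3* and 5.55 to 13.5 for *Irak3*, and the ranges of *Mdk*, *Hdac7* and *Nav3* overlapped. The BA mice had lower values in the BA vs AV table for every member, in step with the median ratio of 0.850 between the BA means of both tables over 9417 shared genes.

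Between BA and AV mice, *Irak3*, *Il1rap* and *Hdac7* were lower and *Nav3* and *Mdk* higher in AV mice, and the values of the groups did not overlap for any of the 5. Groups did not overlap for 58.9% of all genes of the table, and 29.7% were called by limma at an adjusted p under 0.05. Since the genes were chosen by this contrast, nothing is read from their count. A log2 fold change is given below as the AV or AP mean minus the BA mean on the scale of log2(value + 1), and its median over all genes of the table was -0.03.

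**Figure D1:**
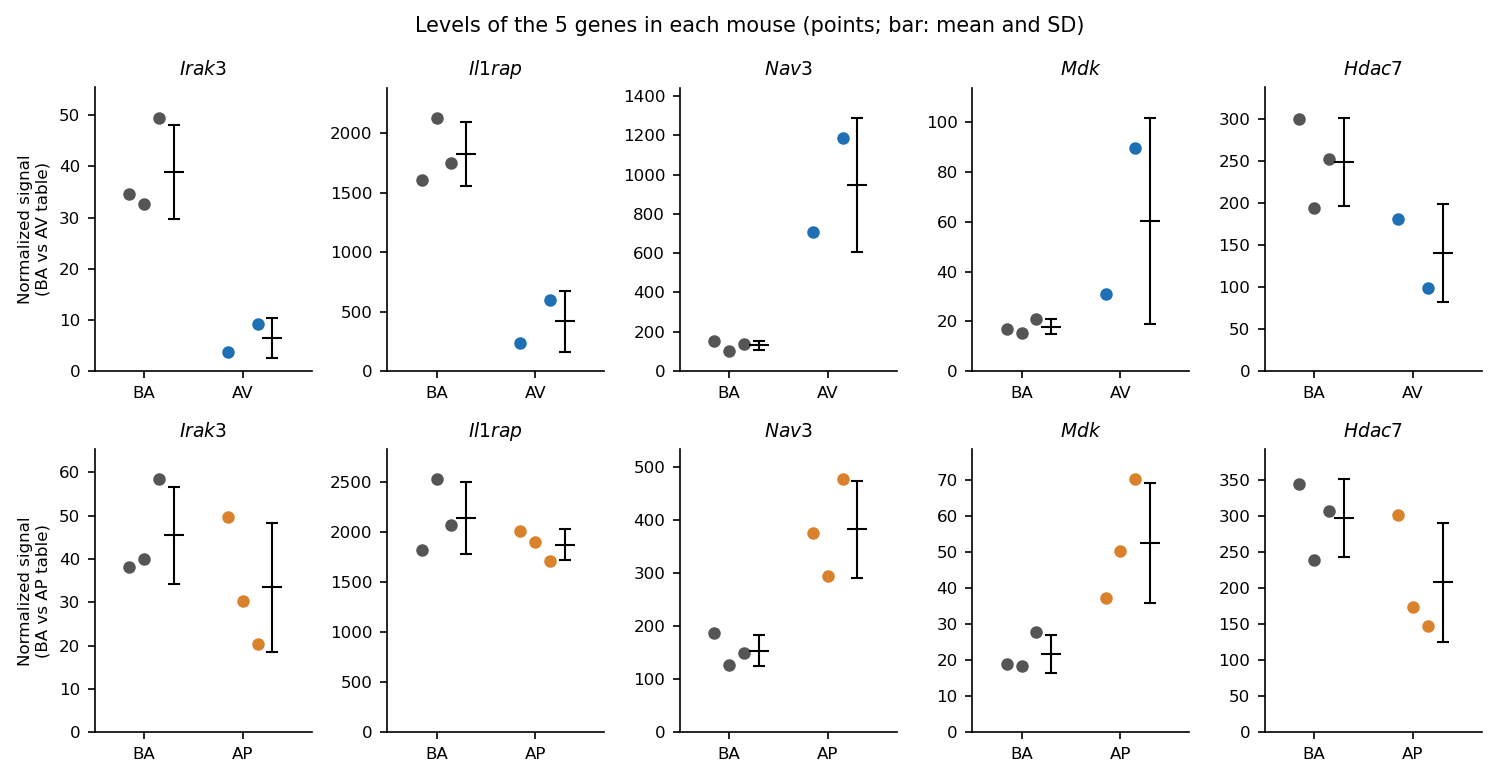
Normalized signal (linear axes from 0) of the 5 genes in each mouse, with BA and AV mice of their table in the upper row and BA and AP mice of theirs in the lower row; bars give the mean and SD. *Nav3* and *Mdk* lie above all BA mice in every AV and AP mouse, whereas *Irak3*, *Il1rap* and *Hdac7* are below all BA mice in AV mice only and overlap BA mice in the AP panels.

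*Irak3*, the brake on the Myddosome, had values of 34.6, 32.7 and 49.5 in BA mice and of 3.68 and 9.13 in AV mice. Both AV mice were far below the lowest BA mouse, and the value of AV mouse 1 lay under the level of 3 reads seen in the other table. The means were 39.0 ± 9.19 (SD, n = 3) and 6.40 ± 3.85 (SD, n = 2), 6.08-fold higher in BA mice, with a log2 fold change of -2.51 (SE 0.38). *Il1rap*, the shared receptor subunit, had values of 1606, 2131 and 1748 in BA mice and of 237 and 599 in AV mice. AV mouse 1 was the lower of the AV pair here too, and the log2 fold change was -2.27 (SE 0.40) with means of 1828 ± 272 and 418 ± 256. Without AV mouse 1 the log2 fold change of *Il1rap* was -1.60, and without AV mouse 3 it was -2.93.

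*Nav3*, the navigator, had values of 152, 104 and 135 in BA mice and of 706 and 1189 in AV mice. Both AV values lay several times above the highest BA value, the means of 130.4 ± 24.5 and 947 ± 342 differed 7.27-fold, and the log2 fold change was 2.82 (SE 0.31). *Mdk*, midkine, was listed low, at 16.96, 15.5 and 21.04 in BA mice and at 30.9 and 89.7 in AV mice. The increase was carried mostly by AV mouse 3: the log2 fold change of 1.53 (SE 0.44) was 0.77 without it and 2.28 without AV mouse 1. *Hdac7* had values of 299.5, 194 and 252 in BA mice and of 181 and 99.1 in AV mice. The gap between its groups was narrow, from 194 in BA mouse 2 to 181 in AV mouse 1, and the log2 fold change was -0.86 (SE 0.33), -0.43 without AV mouse 3 and -1.30 without AV mouse 1.

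Within the genes the study listed for each cytokine, 4 of the members were the extremes of this contrast. *Il1rap* had the lowest and *Nav3* the highest log2 fold change of 20 IL-2 production genes, and *Irak3* had the lowest and *Mdk* the highest of 14 IL-12 production genes. *Hdac7* ranked 11 from the highest among the 20. The study drew both lists on these mice, so the ranks are a description. Of the 4 ranks, 3 changed when 1 AV mouse was left out. Without AV mouse 1, *Il1rap* (-1.60) was no longer below *Ceacam1* (-1.90) and *Malt1* (-2.43), nor *Irak3* (-1.96) below *Tirap* (-2.42). Without AV mouse 3, *Mdk* (0.77) lay below *Mast2* (1.38), *Plcb1* (1.33) and *C1qbp* (1.31). *Nav3* and *Homer2* were close, at 3.20 and 3.15 without AV mouse 1 and at 2.44 each without AV mouse 3. Without BA mouse 2, *Nav3* (2.67) lay below *Homer2*, so that its rank changed as well.

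The AP mice were not used to choose the genes, although the BA mice were, and earlier results of these data were known at the choice. With that limit, the comparison of BA with AP mice was tested. No member was called over all 11820 genes with limma, where calls amounted to 0.00846% (1 gene), and 2 of 5, *Nav3* and *Mdk*, had an unadjusted p under 0.05. An unadjusted p below that level was reached by 7.77% of all genes, and by 4.99% with a higher level in AP mice. The groups did not overlap for these 2 members only, and for 12.1% of all genes.

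*Nav3* was at 186, 127 and 149 in BA mice and at 375, 295 and 477 in AP mice, so that the lowest AP mouse was above the highest BA mouse. The means were 154 ± 30.0 and 382 ± 91.0 (SD, n = 3 each), a 2.48-fold difference, and the log2 fold change was 1.30 (SE 0.26, 95% confidence interval 0.69 to 1.90). Its limma p was 0.00103 before and 0.258 after adjustment over all genes. *Mdk* was at 19.1, 18.4 and 27.7 in BA mice and at 37.2, 50.2 and 70.1 in AP mice, again without overlap. The means of 21.7 ± 5.22 and 52.5 ± 16.6 differed 2.42-fold, and the log2 fold change was 1.21 (SE 0.29, 95% confidence interval 0.54 to 1.88) with a limma p of 0.00297 before and 0.349 after adjustment.

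The 3 genes that were low in AV mice overlapped between BA and AP mice. *Irak3* was at 38.2, 39.9 and 58.4 in BA mice and at 49.8, 30.3 and 20.4 in AP mice, and AP mice 2 and 3 were below all BA mice while AP mouse 1 was among them. Its log2 fold change was -0.50 (SE 0.34, 95% confidence interval -1.28 to 0.29, limma adjusted p 0.727). *Il1rap* was at 1822, 2525 and 2074 in BA mice and at 2013, 1900 and 1712 in AP mice. Its log2 fold change of -0.18 had a 95% confidence interval from -0.69 to 0.33 (limma adjusted p 0.840). *Hdac7* was at 345, 239 and 307 in BA mice and at 302, 174 and 148 in AP mice, with AP mice 2 and 3 below the BA range. Its log2 fold change was -0.56 (95% confidence interval -1.27 to 0.14, limma adjusted p 0.700). These p-values do not show that the levels are alike.

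Side by side, the log2 fold changes in AV and in AP mice were -2.51 and -0.50 for *Irak3*, -2.27 and -0.18 for *Il1rap*, 2.82 and 1.30 for *Nav3*, 1.53 and 1.21 for *Mdk* and -0.86 and -0.56 for *Hdac7*. The signs were the same for all 5, but both comparisons use the same BA mice, and the difference between AV and AP mice was not tested.

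**Figure D2:**
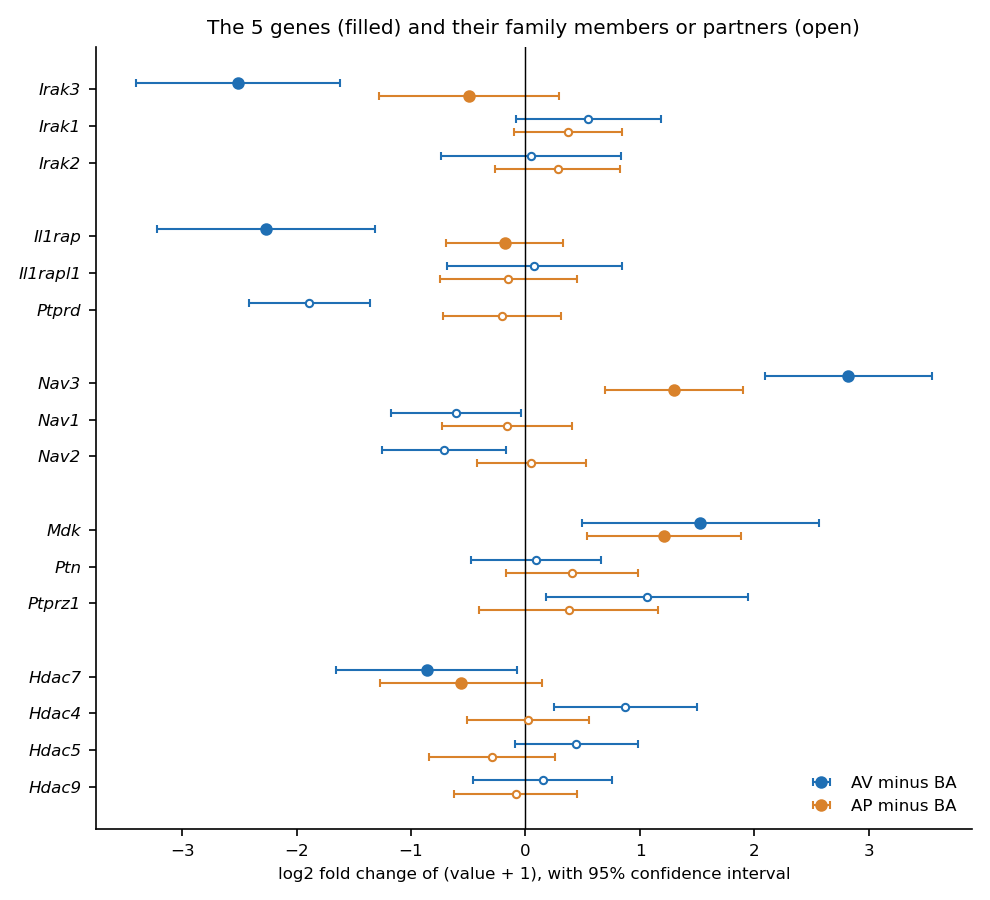
Log2 fold change of (value + 1) against BA mice with its 95% confidence interval, for AV mice (blue) and AP mice (orange); filled points are the 5 genes and open points their family members or partners. The blue intervals of the 5 genes are no test, since these genes were chosen with their change in AV mice in view. *Ptprd* (-1.89) lies beside *Il1rap* in AV mice, while *Nav1* and *Nav2* lie on the opposite side of 0 from *Nav3* in AV mice.

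Close relatives of the members mostly did not share their pattern. In the IRAK family, *Irak1*, an active signalling kinase, had a log2 fold change of 0.55 in AV and 0.37 in AP mice, and *Irak2* one of 0.04 and 0.28, none of them called by limma. *Irak4*, *Il1r1* and *Il1rapl2* were listed in neither table. *Il1rapl1*, a synaptic relative of *Il1rap*, had values of 142, 126 and 181 in BA mice, and the 212 and 115 of AV mice lay on both sides of them (log2 fold change 0.08). *Nav1* and *Nav2* differed from *Nav3* in sign in AV mice, with log2 fold changes of -0.60 and -0.71 (limma adjusted p 0.0994 and 0.0554, not called). *Nav2* was at 1240, 1239 and 1236 in BA mice and at 653 and 873 in AV mice, so that these groups did not overlap either. *Ptn*, which encodes pleiotrophin, the only other protein of the midkine family, had log2 fold changes of 0.09 in AV and 0.41 in AP mice. Among the class IIa deacetylases, *Hdac4* was called higher in AV mice at 0.87 (limma adjusted p 0.0460), opposite in sign to *Hdac7*, but the call was lost without BA mouse 1, 2 or 3 (log2 fold changes of 1.04, 0.76 and 0.82) and without AV mouse 3 (0.71). *Hdac5* (0.44) and *Hdac9* (0.15) were not called in AV mice, and none of the 4 class IIa genes was called in AP mice.

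The genes of the IL-1 and Toll-like pathway around *Il1rap* and *Irak3* were called in both directions. Of all 9872 genes of the table, 1338 were called higher and 1596 lower. Of 6 other receptors and ligands listed, 2 were called lower and none higher, with a median log2 fold change of 0.31 over the 6. *Il18bp*, the secreted decoy that binds IL-18, fell from 78.9, 63.2 and 48.7 in BA mice to 5.43 and 8.66 in AV mice (log2 fold change -3.01, limma adjusted p 0.00304). *Il33*, an alarmin whose receptor uses the *Il1rap* product, fell from 2307, 2919 and 2978 to 1028 and 1192 (-1.29, limma adjusted p 0.00875). *Il33* was chosen for naming after its values were seen, as were the other list genes below that are not the largest change of their list or a relative or partner named above.

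Of 15 other Myddosome genes, 1 was called higher and 3 lower, with a median of -0.12. *Tirap*, the adaptor that brings MyD88 to Toll-like receptors at the membrane, fell from 71.7, 80.0 and 75.7 to 29.1 and 13.4 (log2 fold change -1.88, limma adjusted p 0.00835). *Ube2v1*, a partner of the ubiquitin-conjugating enzyme that builds the chains made by TRAF6, rose by 1.48 (limma adjusted p 0.00634). *Traf6* itself was called lower at -1.04 with an adjusted p of 0.0230 from limma, a call lost without BA mouse 1 or 2 and AV mouse 1 (-0.95, -0.97 and -0.90). Among 6 NF-kB genes, *Ikbkb*, the kinase that releases NF-kB, was the only one called, at -1.32 (limma adjusted p 0.0121), beside a median of -0.75.

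In AP mice none of these genes was called by limma, and the medians were 0.77 over 11 other receptors and ligands, 0.13 over 19 Myddosome genes and 0.15 over 9 NF-kB genes. *Tlr4*, *Tlr7*, *Tlr9* and *Cd14*, pattern recognition genes of myeloid cells, had unadjusted p-values under 0.05 in the limma fit with log2 fold changes of 2.36, 1.50, 1.41 and 1.43. *Tlr4*, which had the smallest p of its list, was at 4.13, 9.17 and 16.7 in BA mice and at 49.8, 47.3 and 49.6 in AP mice (limma adjusted p 0.237), and the value of BA mouse 1 was under the level of 3 reads. All 11 listed microglia markers had unadjusted p-values under 0.05 and higher levels in AP mice in the same fit, none called, and their part in these values was not tested.

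The synaptic partners of *Il1rap* went in both directions in AV mice. *Ptprd*, whose product binds the accessory protein across the synapse, fell from 11662, 13082 and 14243 in BA mice to 3236 and 3781 in AV mice. Its log2 fold change of -1.89 (SE 0.22, limma adjusted p 0.00328) was called in every fit with 1 mouse left out. In AP mice *Ptprd* was at 15037, 11511 and 13276 against 13210, 15604 and 17114 in BA mice, with a log2 fold change of -0.21 that was not called. Of 15 other genes of the list 5 were called higher and 1, *Ptprd*, lower, with a median of 0.67. *Ppfia4*, which encodes a liprin-α that binds the phosphatases of this family, rose from 22.8, 9.10 and 23.6 to 77.3 and 220.1 (log2 fold change 2.86, limma adjusted p 0.0110), and by 3.61 without AV mouse 1 and 2.11 without AV mouse 3. *Lrfn5*, which encodes a postsynaptic ligand of these phosphatases, rose from 20.9, 22.6 and 15.5 to 86.0 and 64.1 (1.88, limma adjusted p 0.00464). In AP mice *Ppfia4* had the smallest p of the list, with a log2 fold change of 1.60 and a limma adjusted p of 0.359.

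Among 19 other navigators and microtubule plus-end genes, calls were 2 higher and 4 lower in AV mice, with a median of -0.17. Of these 6 calls, 2 were made in every fit with 1 mouse left out. *Clip4*, a gene of the CLIP family, rose from 40.8, 31.4 and 58.5 to 139 and 131 (log2 fold change 1.65, limma adjusted p 0.00887). *Slain1*, which promotes microtubule growth at the plus end, fell from 2840, 2974 and 2691 to 866 and 985 (-1.62, limma adjusted p 0.00407). The value of *Nav3*, 2.82, was above that of every other gene of this list in AV mice, and its 1.30 was above every other one in AP mice, where no gene of the list was called.

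All called genes of the midkine list lay in the direction of *Mdk* in AV mice. Of 13 other listed ligands and receptors, 5 were called higher and none lower, with a median log2 fold change of 0.28 against -0.03 over all genes. *Sdc3*, a heparan sulphate carrier of neural tissue, rose from 98.0, 192 and 97.7 to 420.0 and 709 (log2 fold change 2.15, limma adjusted p 0.00897). *Lrp8*, the reelin and apolipoprotein E receptor, rose from 120.0, 86.7 and 142 to 273 and 326 (1.38, limma adjusted p 0.0124). *Lrp1*, *Sdc4* and *Sdc2* were called as well, at 1.35, 1.11 and 1.05, and lost their calls without BA mouse 1 (1.38, 1.19 and 0.88), 2 (1.30, 1.06 and 1.05) or 3 (1.36, 1.08 and 1.205). *Sdc4* was also not called without AV mouse 3 (0.66), nor *Sdc2* without AV mouse 1 (0.70). *Ptprz1*, a receptor phosphatase for midkine, had a log2 fold change of 1.06 that was not called (limma adjusted p 0.0715). Without AV mouse 1 this change was 1.62, and without AV mouse 3 it was 0.51. *Alk*, of the same list, went the other way, from 19.2, 17.6 and 12.74 in BA mice to 2.57 and 12.67 in AV mice. That decrease, -1.31 on the log2 scale, was not called either (limma adjusted p 0.109). It was carried mostly by AV mouse 1, at -0.34 without that mouse and -2.28 without AV mouse 3. *Itga4* was lower too, at -0.83, with overlapping groups and no call. In AP mice the median of 15 other genes was 0.36, none was called and *Mdk* alone had an unadjusted p under 0.05.

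*Hdac7* belongs to a family in which 9 other genes were listed in the BA vs AV table, 1 called higher and 1 lower, with a median of 0.11. The lower one was *Hdac3*, the catalytic subunit that class IIa deacetylases recruit through the NCoR complex, with values of 212, 153 and 160 in BA mice and of 88.6 and 106 in AV mice. Its change on the log2 scale was -0.83 (limma adjusted p 0.0442), a call lost without BA mouse 1, 2 or 3 (-0.68, -0.92 and -0.89) or AV mouse 1 (-0.70). Of the 19 listed partners and kinases of class IIa deacetylases, 6 were called higher and 3 lower, with a median of 0.38. *Mef2c*, a transcription factor that these enzymes repress and that neurons and microglia both use, rose from 90.2, 98.8 and 216 to 963 and 913 (log2 fold change 2.90, limma adjusted p 0.00431). *Camk1d*, a calcium-dependent kinase, rose by 2.45 (limma adjusted p 0.00319), and *Ywhah* and *Ywhag*, 14-3-3 genes whose products hold phosphorylated class IIa enzymes in the cytoplasm, rose by 1.64 and 1.55 (limma adjusted p 0.00408 and 0.00472). *Prkd3*, a kinase of the protein kinase D family, had the largest decrease, at -0.99 (limma adjusted p 0.0164), and was not called without BA mouse 1, 2 or 3 (-1.005, -1.02 and -0.94). *Sik3* (-0.91) and *Ywhaq* (-0.81) lost their calls without any 1 BA mouse (-0.94 to -0.88 and -0.85 to -0.73) or without AV mouse 1 (-0.78 and -0.74). Of the 9 calls, 4 were made in every fit with 1 mouse left out, all of them higher in AV mice. In AP mice *Camk1d* (0.98, limma adjusted p 0.392) and *Mef2c* (1.36, limma adjusted p 0.428) had the smallest p-values of this list and were not called.

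**Figure D3:**
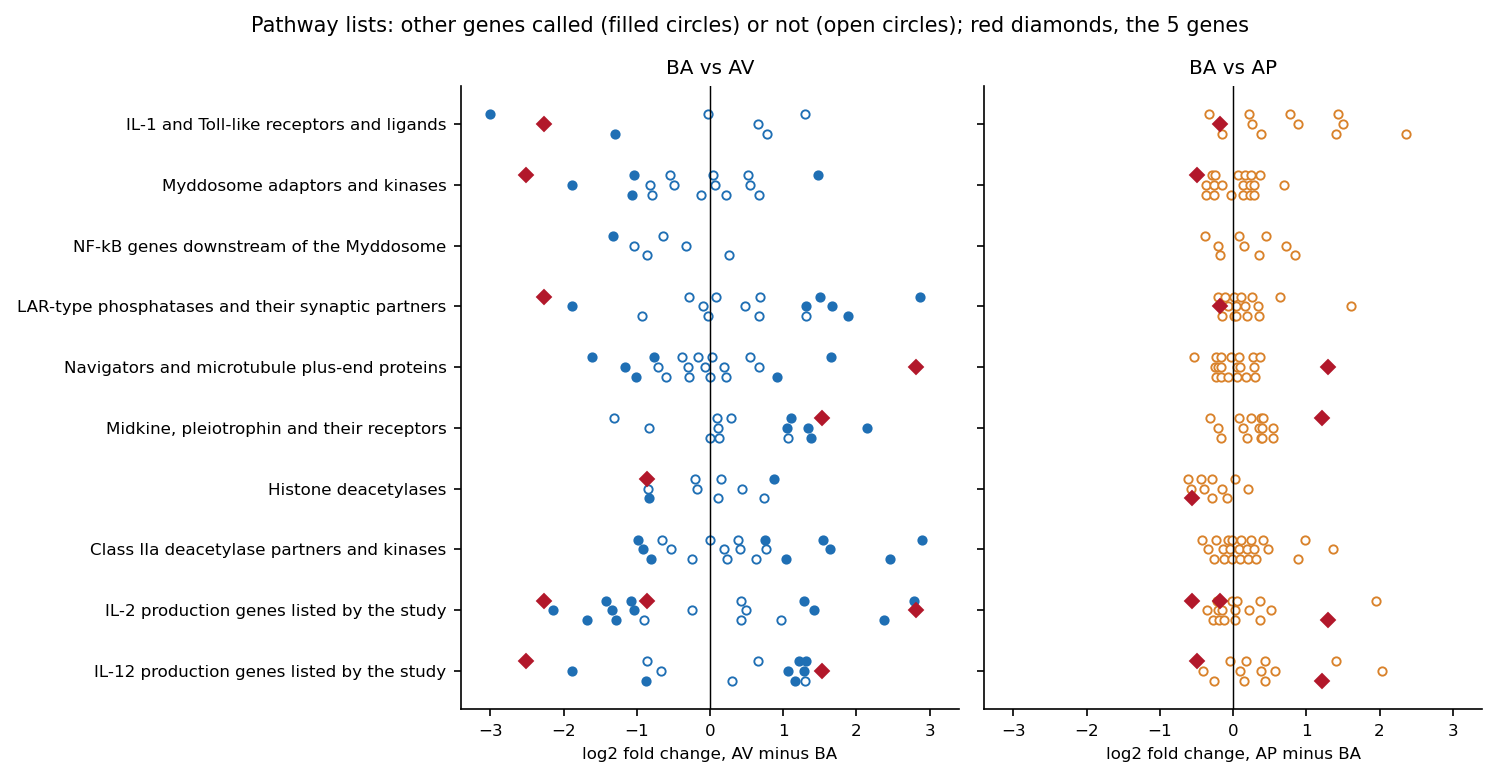
Log2 fold change against BA mice of every listed gene of 10 pathway lists, 1 row per list, for AV mice (left) and AP mice (right); filled circles are genes called by limma at an adjusted p under 0.05, open circles genes not called and red diamonds the 5 genes, for which no call is shown. In the left panel the diamonds lie at the ends of several rows, and in the right panel no circle is filled.

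In the lists of the study itself, which were chosen on these mice and are no independent evidence, 17 other IL-2 production genes included 4 called higher and 7 lower in AV mice (median -0.25), and 12 other IL-12 production genes 5 higher and 2 lower (median 0.86). In every fit with 1 mouse left out, 4 of the 11 IL-2 calls held, 2 higher and 2 lower, and 3 of the 7 IL-12 calls, 2 higher and 1 lower. *Homer2*, a synaptic scaffold gene, rose by 2.79 (limma adjusted p 0.00314) and came next after *Nav3*. *Ceacam1*, a cell adhesion gene, fell by 2.14 on the log2 scale (limma adjusted p 0.00444). In AP mice *Fcer1g*, the signalling chain of Fc receptors in myeloid cells, had the smallest p of the IL-2 list, at 52.1, 49.1 and 52.3 in BA mice and 176, 169 and 275 in AP mice (log2 fold change 1.96, limma adjusted p 0.117). *Irf8*, a transcription factor of the myeloid lineage, had the smallest of the IL-12 list (2.03, limma adjusted p 0.248).

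The levels of the members were also set against the summed markers of glial types in the same mouse, a ratio chosen after the values were seen. As a percentage of the oligodendrocyte marker sum, *Il1rap* was at 0.895, 0.959 and 0.973 in BA mice and at 0.463 and 0.759 in AV mice, closer together than the levels themselves but still without overlap. In the AP table the ratio overlapped, from 0.865 to 0.947 in BA mice and from 0.717 to 0.940 in AP mice. *Irak3* was at 0.0147% to 0.0276% of the oligodendrocyte sum in BA mice and at 0.00719% and 0.0116% in AV mice, again apart. Against the microglia sums *Irak3* was apart in both tables. Over 3 markers it was at 13.7% to 13.97% in BA mice and 0.510% and 0.972% in AV mice. Over 11 markers it was at 1.88% to 2.599% in BA mice and 0.278% to 0.902% in AP mice, where the levels of *Irak3* themselves overlapped. The microglia sums were higher in AV and AP mice, and a higher sum alone lowers the ratio of an unchanged gene. In AV mice the astrocyte sum was higher and the oligodendrocyte sum lower, which moves their ratios likewise. Such ratios do not tell a change of the gene from a change of the sum. *Hdac7* against the oligodendrocyte sum overlapped, at 0.0875% to 0.167% in BA mice and in AV mice at 0.126% and 0.354%. Against the astrocyte sum *Hdac7* was apart, at 1.69% to 2.64% in BA mice and 0.615% and 0.174% in AV mice. Against the microglia sum it was apart too, at 71.0% to 118% in BA mice and 25.1% and 10.6% in AV mice. In the BA vs AP table it was at 9.91% to 20.8% of the microglia sum in BA mice and at 2.02% to 5.48% in AP mice. *Mdk* against the astrocyte sum overlapped between BA mice (0.141% to 0.165%) and AV mice (0.105% and 0.158%). It overlapped against the microglia sum too, but was apart against the oligodendrocyte sum, at 0.00695% to 0.0117% in BA mice and 0.0604% and 0.114% in AV mice. *Nav3* stayed higher in AV mice against all 3 glial sums. No ratio was taken to *Nrgn*, the only listed pyramidal neuron marker, which was itself higher in AV mice (log2 fold change 3.08). Against the astrocyte sum *Nav3* was at 0.905% to 1.34% in BA mice and at 2.40% and 2.09% in AV mice. Against the 3 listed microglia markers it was at 38.0% to 60.2% in BA mice and at 97.7% and 127% in AV mice. In the BA vs AP table *Nav3* against 11 microglia markers overlapped, at 4.81% to 11.3% in BA mice and 6.51% to 7.05% in AP mice, and against the astrocyte sum too, at 0.886% to 1.38% and 0.585% to 3.96%. *Mdk* there overlapped against the astrocyte sum, at 0.141% to 0.165% in BA mice and 0.0994% to 0.393% in AP mice, and against the microglia sum, at 0.895% to 1.198% and 0.675% to 1.197%. Against the oligodendrocyte sum of that table *Nav3* and *Mdk* were still apart, with *Mdk* at 0.00680% to 0.0127% in BA and 0.0174% to 0.0298% in AP mice. The part of cell types in the levels of the 5 genes was not tested beyond these ratios.

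**Figure D4:**
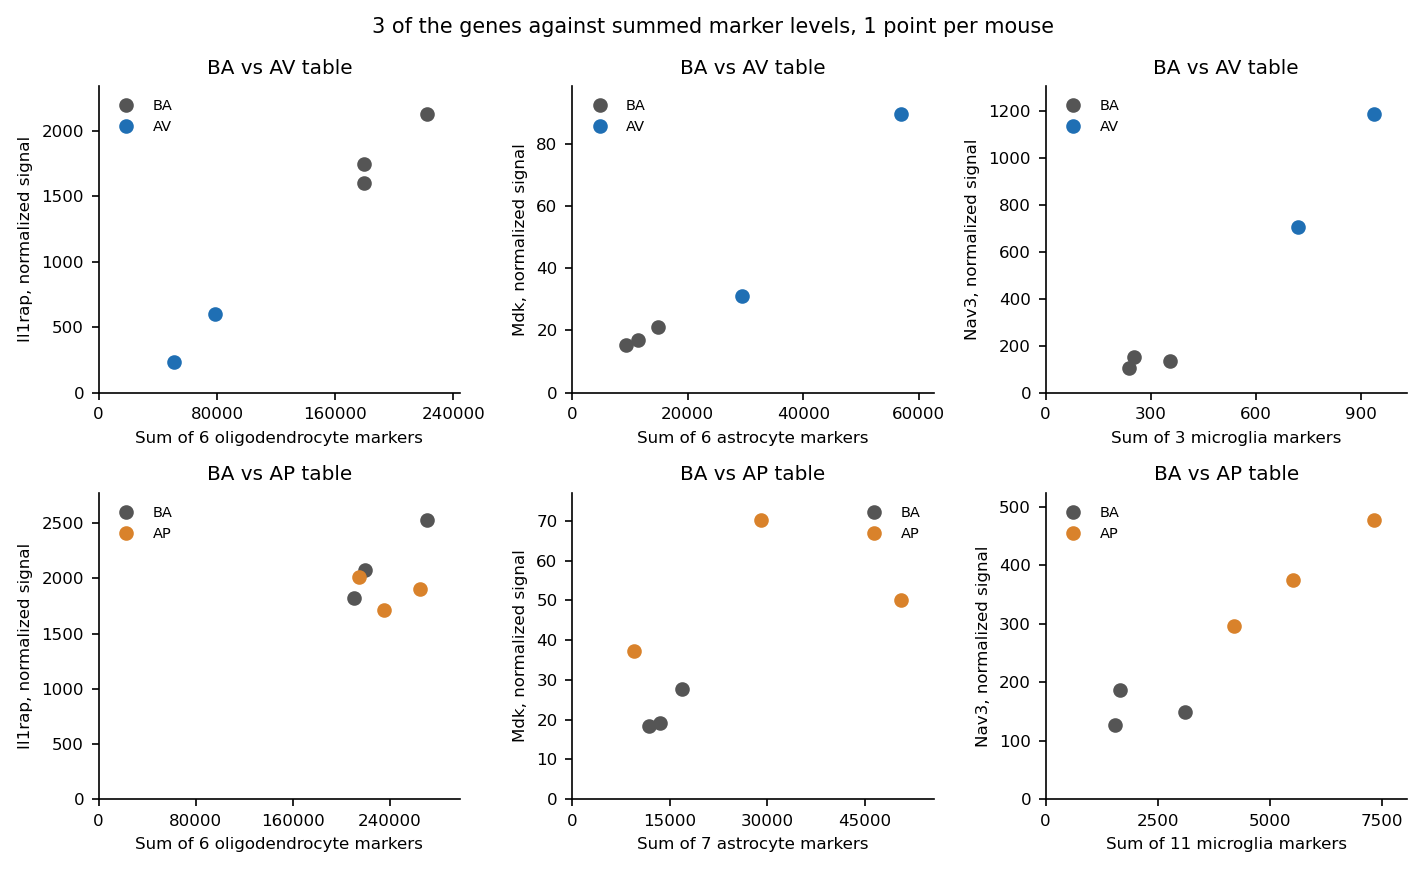
Normalized signal of *Il1rap*, *Mdk* and *Nav3* against the summed signal of oligodendrocyte, astrocyte and microglia markers, 1 point per mouse, on linear axes from 0; BA and AV mice are in the upper row and BA and AP mice in the lower row. *Il1rap* and the oligodendrocyte sum are both low in AV mice, and *Nav3* and the microglia sum are both higher in AV and AP mice than in BA mice.

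The genes whose pattern over the mice was most like that of a member were taken, in each table, from the 3 with the highest Pearson r on log2(value + 1). In the BA vs AV table, over 5 mice, these were *Rrm1*, *Zfp846* and *Tmcc1* for *Irak3*, *Slc25a13*, *1110008L16Rik* and *Atp10b* for *Il1rap*, *Rpl27*, *Shank2* and *Cpe* for *Nav3*, *Wnk2* and *Cs* for *Mdk*, and *Ube2e2*, *Fam174a* and *Ppox* for *Hdac7*, all with r of at least 0.996. So few points make such values common: between 1.62% and 8.53% of 9687 genes had r above 0.95 with a member. In the BA vs AP table, over 6 mice, they were *Rnf43*, *Gm49274* and *Zfp418* for *Irak3*, *Wdr19*, *Lifr* and *Mob3b* for *Il1rap*, *Gm13570*, *Inpp1* and *Rogdi* for *Nav3*, *Ldha*, *Nudt10* and *Kbtbd2* for *Mdk*, and *Zfp939*, *Olfr1175-ps* and *Hmga2* for *Hdac7*, with r of at least 0.981. Between 0.233% and 0.905% of 11598 genes passed 0.95 there. The points of a table share the separation of its groups, and no gene was among the 3 for the same member in both tables.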

How the data were processed

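RNA of sorted amygdala cells was sequenced by the authors as 1 stranded paired-end library per mouse. The submitters' processing notes name bcl2fastq 2.20, Salmon 1.2 and GRCm38.p6. The authors deposited a normalized signal per gene and mouse, made by TMM normalization and a filter on low counts, and their methods add batch correction with ARSyN. A table that the authors corrected for batch can understate the spread between mice. Between 84.1% and 91.3% of the low values in the table with AP mice lay within 0.1 of a whole step of 1 read above its lowest value of 2. Identifiers were matched to GENCODE M21 (11783 of 11820 and 9871 of 9872), and the gene identifiers of *Nav3* carry different versions in the tables.

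Each table was fitted on log2(value + 1) over all listed genes with limma 3.58.1 in R 4.3.3, without covariates, with Benjamini-Hochberg adjustment at 0.05. Tables were prepared in Python 3.11.15. Scripts were tested on simulated data. The members, pathway and marker lists were chosen with earlier results of these data known. Named genes were the members, their relatives and partners, from each list the called genes that rose and fell most (without a call, the smallest p) and, as most alike, the 3 genes of mean value 10 or more with the highest r. Alternatives were a pseudocount of 10, a low-value filter of 10, centring, a variance prior that follows expression, the replicate number as a block and each mouse left out. AV mouse 2 was not analysed here. A few genes within this rule are not reported here.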

Additional observations from a re-analysis of the deposited data

How the results depend on the processing

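The members kept their direction in both comparisons under all 10 alternatives of BA vs AV and all 11 of BA vs AP. In BA vs AV, *Irak3* had a log2 fold change of -1.58 with a pseudocount of 10. With 1 mouse left out the ranges were -3.07 to -1.96 for *Irak3*, -2.93 to -1.60 for *Il1rap* and 0.77 to 2.28 for *Mdk*, the ends set by AV mice 1 and 3. In BA vs AP no member was called under any alternative. The lowest limma adjusted p was 0.0818 for *Nav3*, with the prior that follows mean expression, and 0.113 for *Mdk*, and the highest 0.620 and 0.820. Calls in BA vs AV numbered 2934, of which 55 were in the pathway lists with members included. They were 1521 to 3497 and 29 to 59 with 1 mouse left out, lowest without BA mouse 2. Of the called list genes other than members, calls in every fit with 1 mouse left out numbered 5 of 6 in the list of LAR-type phosphatases, 2 of 5 in that of midkine and none of 2 for the histone deacetylases. In BA vs AP, 1 gene was called, 0 with a pseudocount of 10, 10 with the prior that follows mean expression (1 of them in the pathway lists) and 0 to 15 with 1 mouse left out, 15 without AP mouse 1. With the replicate number as a block, 970 genes (20 in the lists) were called in BA vs AV and 0 in BA vs AP. The numbers name mice and are not known to pair them. Deviations of same-numbered BA and AP mice had r of 0.020, 0.121 and 0.081. These were small but all above those of differently numbered mice, at -0.117 to 0.014. Whether the numbers mark a shared batch was not tested. In BA vs AV no AV mouse shares the number of BA mouse 2, so the block takes that mouse out of the comparison. The log2 fold changes of the members were then the same as without BA mouse 2, as for *Irak3* (-2.62). Beyond that, and the smaller number of mice where one was left out, the cause of these changes was not tested. With 2 AV mice, values near the level of 3 reads, such as *Irak3* in AV mouse 1, carry little precision.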
